A study of Rattus norvegicus with 12 samples.

Results

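The double knockdown of Yap and Wwtr1 was compared with Wwtr1 siRNA alone in cultured rat cardiac fibroblasts, which gives the effect of Yap siRNA in cells where Wwtr1 messenger RNA had already been lowered. Members were all genes that averaged 10 or more normalized counts over the 12 libraries of the series, 11871 of the 12271 genes listed, and 6 of the 12 libraries entered the comparison. The cells came from neonatal heart ventricles of Sprague Dawley rats at postnatal day 2, isolated with a dissociation kit and a density gradient. Replicates came from separate litters, per the study's methods. A small interfering RNA (siRNA) directs cleavage of the transcript it pairs with. Each group had 3 libraries and received, per the labels, 2 siRNAs per target at 25 nM each: universal negative controls, siRNAs against Yap, siRNAs against Wwtr1, or siRNAs against both. The labels place RNA collection 48 hours after transfection, whereas the study's methods describe a medium change first and a later collection, so the interval is uncertain. The double knockdown group was taken from the sample titles, because its siRNA label names the Wwtr1 siRNAs alone. The series design text calls the cells myocytes, whereas the title and the labels call them fibroblasts. No group received Wwtr1 siRNA with added negative siRNA, and whether total siRNA was equal between groups was not stated, so lower Yap and the added siRNA cannot be told apart. No rescue was included, and the siRNAs act on every cell type in the dish.

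The proteins Yap (gene Yap1) and Wwtr1 (TAZ) are paralogous transcriptional coactivators at the end of the Hippo kinase pathway. They bind DNA through TEAD transcription factors, and their known targets include genes of the extracellular matrix, the cytoskeleton and the pathway's own inhibitors. In the heart, fibroblasts make and remodel matrix, and after injury they turn into contractile myofibroblasts.

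Recovered totals of the libraries lay between 33.9 and 41.1 M reads, with the highest totals, 41.0 and 41.1 M, in double knockdown replicates 2 and 3. Col1a1, a chain of type I collagen, was the most abundant gene in all 12 libraries, and all 12 fibroblast markers on the list passed the filter. Cells of other types were also present by their markers. Summed macrophage and leukocyte markers (24 tested) were 21200, 33639 and 28959 normalized counts with Wwtr1 siRNA against 12628, 23751 and 82590 in the double knockdown, so double knockdown replicate 3 stood apart and the other replicates did not exceed the Wwtr1 siRNA range. Fcgr2b was the only macrophage marker of the 24 that passed the test (1 higher, 0 lower, median 0.04), and Cx3cr1 was the only one of these 24 listed at 0 in any of the 6 libraries. Without double knockdown replicate 3, 1 of the 24 was called higher and 6 lower, with a median of -0.67. Summed interferon-induced genes separated Wwtr1 siRNA replicate 3 (107325) from replicates 1 and 2 (310393 and 233215). Where leaving out 1 library ended the call of a named gene or moved its fold change by over 1.5 times, that is stated beside it. In RNA from a mixed culture, fewer cells of a type and less RNA per cell cannot be told apart.

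Yap1 was lower and Wwtr1 was higher in the double knockdown than with Wwtr1 siRNA alone. Values below are normalized counts of replicates 1, 2 and 3 in that order. Yap1 was 3169, 3151 and 3184 with Wwtr1 siRNA against 713, 739 and 1474 in the double knockdown. The groups did not overlap, and replicate 3 was the high library of the double knockdown. These levels were 21.8%, 22.6% and 45.1% of the mean with negative siRNA. The log2 difference was -1.78 (SE 0.22, limma adjusted p = 0.000391), and it was -2.12 without double knockdown replicate 3. Wwtr1 was 524, 550 and 637 with Wwtr1 siRNA against 818, 731 and 1056 in the double knockdown. The double knockdown libraries were all above the Wwtr1 siRNA libraries, with 30.4% to 43.9% of the negative siRNA mean against 21.8% to 26.5%. This log2 difference was 0.59 (SE 0.13, limma adjusted p = 0.00804), and 0.44 without double knockdown replicate 3. Yap siRNA given alone left Wwtr1 at a log2 difference of -0.04 from negative siRNA (limma adjusted p = 0.902). Wwtr1 was therefore low in both groups but not equally low.

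**Figure D1:**
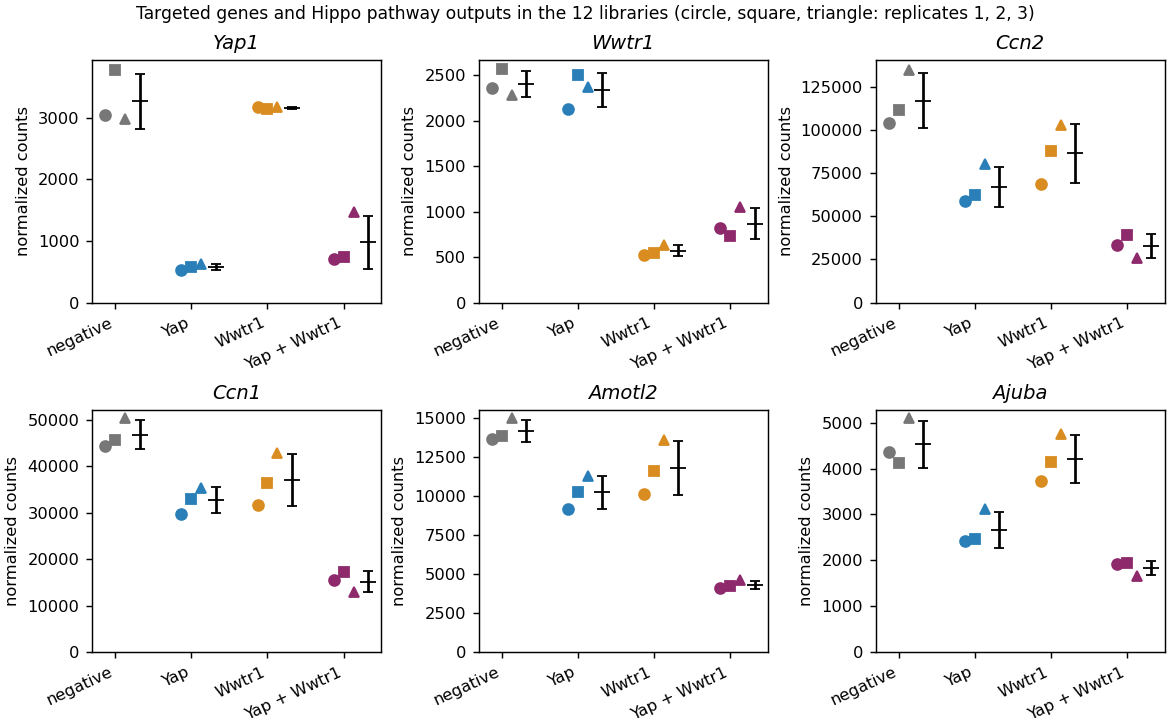
Normalized counts of Yap1, Wwtr1 and genes linked to the Hippo pathway (y axis) in each library of the 4 siRNA groups (x axis), with symbols for replicates 1 to 3 and black bars for the mean and SD. Yap1 goes from 3169, 3151 and 3184 with Wwtr1 siRNA to 713, 739 and 1474 in the double knockdown, and Ccn2, Ccn1, Amotl2 and Ajuba sit lowest in the double knockdown.

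At a limma adjusted p under 0.05, 2359 genes differed between the groups, which is 19.9% of the genes tested. Of these, 1158 were higher in the double knockdown (9.75%) and 1201 were lower (10.1%). These shares are the background for every list count below. Large changes leaned upward: among called genes 345 were over 2-fold higher and 138 over 2-fold lower (483, 4.07%), 95 were over 4-fold higher and 15 over 4-fold lower, and 49 were over 8-fold higher and 8 over 8-fold lower. With no overlap and a mean of at least 100 over the 6 libraries required, only Vgf and Tgfa were over 4-fold lower. The other falls past 4-fold were in genes with overlap or a lower mean. The groups did not overlap in 37.3% of genes tested (18.9% higher and 18.4% lower), and the median log2 difference over all of them was 0.01. The count was sensitive to the Wwtr1 siRNA libraries, with 1288 calls without replicate 3 and 1463 without replicate 2, whereas 2238 were called without double knockdown replicate 3.

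**Figure D2:**
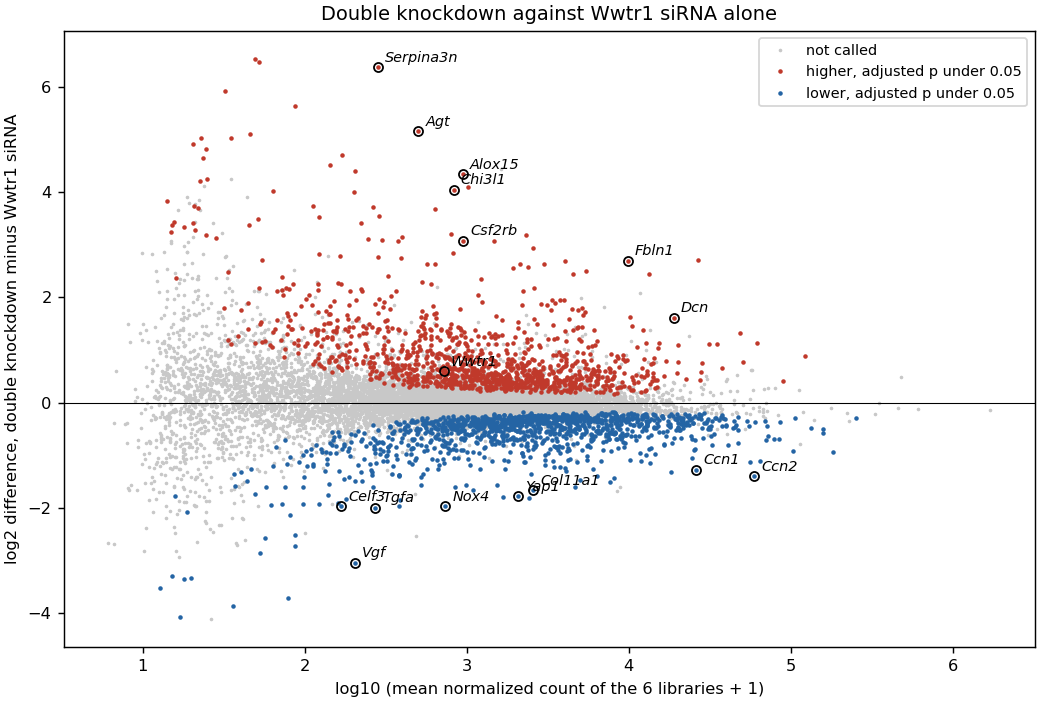
Log2 difference between double knockdown and Wwtr1 siRNA (y axis) against the log10 mean normalized count of the 6 libraries (x axis), 1 point per gene, red for genes higher and blue for genes lower at an adjusted p under 0.05. The largest named rise is Serpina3n at 6.38 and the largest named fall is Vgf at -3.05, and more genes pass 4-fold upward (95) than downward (15). These counts are not limited to genes with a mean of at least 100.

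Standard targets of Yap and Wwtr1 were lower in the double knockdown than with Wwtr1 siRNA alone. Ccn2 (connective tissue growth factor) and Ccn1 (Cyr61) encode secreted matricellular proteins, and their promoters are shown because both are standard TEAD-bound targets. Capitals mark the letters GGAATG or the reverse complement CATTCC, the core of the known TEAD site, searched on both strands in the 250 bases before the RefSeq start (assembly GRCr8, gene strand, 5′ to 3′). The files were made on build rn6, so these positions are the reference's and not the files'.

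Ccn2, chr1:22624615-22624864, minus strand: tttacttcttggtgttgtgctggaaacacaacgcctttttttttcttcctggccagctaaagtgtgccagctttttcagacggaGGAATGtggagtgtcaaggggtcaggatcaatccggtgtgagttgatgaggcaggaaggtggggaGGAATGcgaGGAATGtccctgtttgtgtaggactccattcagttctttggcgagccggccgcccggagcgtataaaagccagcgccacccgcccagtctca

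Ccn1, chr2:237225690-237225939, minus strand: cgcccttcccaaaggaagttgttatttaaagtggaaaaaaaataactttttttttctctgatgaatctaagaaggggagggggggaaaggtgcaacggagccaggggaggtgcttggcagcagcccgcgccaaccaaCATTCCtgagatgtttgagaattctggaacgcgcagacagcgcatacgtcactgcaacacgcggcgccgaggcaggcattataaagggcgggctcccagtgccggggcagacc

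The Ccn2 window held 3 such motifs, at 166, 101 and 92 bases before the start, and the Ccn1 window held 1, at 113 bases. Over all 24206 promoters in the reference table the share with a motif was 11.6%. Among genes tested it was 10% (902 of 8998 with a promoter in the table), among genes higher in the double knockdown 9.56%, and among genes lower 13.2%. Genes over 2-fold lower held it in 16.3% (16 of 98), genes over 2-fold higher in 7.29% (18 of 247), and the YAP/TAZ signature in 35.7% (5 of 14). A match is a run of letters and not evidence of binding.

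Ccn2 was 68613, 87455 and 102880 with Wwtr1 siRNA against 33133, 39349 and 25769 in the double knockdown. Ccn1 was 31665, 36526 and 42804 against 15553, 17224 and 12848. For both genes every double knockdown library lay under every Wwtr1 siRNA library. The log2 difference was -1.40 for Ccn2 (SE 0.19, limma adjusted p = 0.00058) and -1.28 for Ccn1 (SE 0.13, limma adjusted p = 0.000106). Ccn5 (Wisp2), a family member without the C-terminal domain, also fell, from 15908, 14886 and 18153 to 7182, 7170 and 8411, a log2 difference of -1.10 (SE 0.15, limma adjusted p = 0.000713). Ccn3 (Nov) was 7539, 6855 and 9589 against 6275, 5650 and 4533, so the groups did not overlap, but its log2 difference of -0.54 (SE 0.24, 95% interval -1.07 to -0.02) did not pass (limma adjusted p = 0.135). Ccn4 (Wisp1) had a log2 difference of -0.48 (limma adjusted p = 0.0456), and its call ended in 8 of 12 fits that left out 1 library (any Wwtr1 siRNA replicate, double knockdown replicate 2 or 3, Yap siRNA replicate 1 or 3, or negative siRNA replicate 1, with adjusted p up to 0.143). Of the 5 Ccn genes measured, 4 were called lower, and their median log2 difference was -1.10.

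The YAP/TAZ target signature, a set of widely used target genes that includes Ccn1 and Ccn2, followed. Of its 19 members tested, 11 were lower (57.9%) and 1 was higher, with a median log2 difference of -0.53. The count stayed between 9 and 12 lower without double knockdown replicate 1 or 3 or Wwtr1 siRNA replicate 3. Ankrd1, a nuclear ankyrin repeat protein of stretched muscle and a standard Yap target, was 6223, 8002 and 7773 with Wwtr1 siRNA against 3277, 5028 and 4066 in the double knockdown, a log2 difference of -0.84 (SE 0.14, limma adjusted p = 0.00211). It is named in addition to the rule, after its values were seen, like Lats2, Acta2, Tagln, Postn, C3, Col1a1, Zbp1 and Cnp below. The member that rose was Nt5e, the cell surface enzyme CD73 that makes adenosine from AMP. Nt5e was 521, 717 and 565 with Wwtr1 siRNA against 999, 1322 and 982 in the double knockdown, beside 870 to 1177 with negative siRNA. Its log2 difference was 0.87 (SE 0.15, limma adjusted p = 0.00246).

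Among 20 Hippo pathway and TEAD partner genes tested, 5 were lower (25%, against 10.1% of all genes) and 1 was higher (median -0.17), or 5 and 3 with the replicate number as a block. The falls included Amotl2 and Lats2, inhibitors of Yap that also belong to the target signature, and Ajuba. Amotl2, an angiomotin that holds Yap in the cytoplasm, was 10182, 11606 and 13639 with Wwtr1 siRNA against 4104, 4235 and 4625 in the double knockdown. Its double knockdown values lay far under the others, at a log2 difference of -1.44 (SE 0.11, limma adjusted p = 4.7e-05). Ajuba, a LIM protein that restrains the Lats kinases, went from 3720, 4138 and 4753 to 1916, 1935 and 1658 (-1.19, SE 0.12, limma adjusted p = 0.000148). Lats2, a kinase that phosphorylates Yap, had 6658, 7126 and 7360 against 4163, 3851 and 3834 (-0.84, SE 0.09, limma adjusted p = 0.000209). Map4k4, a kinase upstream of Lats, was the member called higher, by 0.39 (SE 0.07, limma adjusted p = 0.00404), from 7908, 7558 and 8128 to 10659, 9240 and 11101. With negative siRNA Map4k4 was 11182 to 12156, so the Wwtr1 siRNA libraries were the low ones.

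Falls and rises are ranked here among called genes without overlap and with a mean of at least 100 over the 6 libraries. The 10 largest such falls were in Vgf, Tgfa, Celf3, Nox4, Myct1, Kcnk2, Dgkg, Rasgrp2, Rims1 and Il1rl1. Vgf, a secreted neuropeptide precursor, was 154, 334 and 587 with Wwtr1 siRNA against 35.8, 97.0 and 14.0 in the double knockdown. With negative siRNA Vgf was 21.5 to 46.5, so the Wwtr1 siRNA libraries were the high ones, and the log2 difference was -3.05 (SE 0.63, limma adjusted p = 0.00638), or -2.38 without double knockdown replicate 3 and -3.73 without double knockdown replicate 2. Celf3, an RNA-binding protein, was also highest after Wwtr1 siRNA, with 234, 321 and 247 in that group, 64.6, 76.1 and 59.7 in the double knockdown and 70.8 to 92.0 with negative siRNA (-1.98, SE 0.21, limma adjusted p = 0.000176). Nox4 (NADPH oxidase 4, a source of hydrogen peroxide in fibroblasts) fell from 1284, 1064 and 1151 to 376, 323 and 211, below its negative siRNA range of 871 to 1044 (-1.98, SE 0.19, limma adjusted p = 0.0001). Tgfa, a ligand of the epidermal growth factor receptor, was 350, 372 and 577 against 126, 107 and 84.2 (-2.00, SE 0.24, limma adjusted p = 0.000328). Il1rl1, which encodes the interleukin-33 receptor ST2, was the most abundant of the 10, with 2524, 3943 and 4798 against 705, 1168 and 1345 (-1.81, SE 0.29, limma adjusted p = 0.00155). In all of these genes the groups did not overlap, which the rule required. Myct1 and Rasgrp2 fell by 1.96 and 1.85 on the log2 scale. With negative siRNA Rasgrp2 was 209 to 336, under its 438 to 826 with Wwtr1 siRNA. Dgkg (-1.92) lost its call without Wwtr1 siRNA replicate 3 (limma adjusted p = 0.0601). Kcnk2, a potassium channel, and Rims1, a synaptic protein, had -1.93 and -1.85, and both lost their calls without Wwtr1 siRNA replicate 3 (adjusted p up to 0.109 and 0.0881), Kcnk2 also without double knockdown replicate 3 and Rims1 also without Wwtr1 siRNA replicate 2. Rims1 was at -1.11 without double knockdown replicate 3, still called.

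The 250 bases before the starts of the 3 largest falls in that ranking are shown beside the Ccn promoters. None of them holds GGAATG or CATTCC, which says only that these letters are not in the window.

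Vgf, chr12:25277021-25277270, minus strand: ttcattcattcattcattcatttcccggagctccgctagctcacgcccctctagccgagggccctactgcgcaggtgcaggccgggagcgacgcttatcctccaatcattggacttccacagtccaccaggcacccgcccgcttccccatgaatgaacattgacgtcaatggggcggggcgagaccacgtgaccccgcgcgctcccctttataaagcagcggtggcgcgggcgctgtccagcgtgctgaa

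Tgfa, chr4:120175469-120175718, plus strand: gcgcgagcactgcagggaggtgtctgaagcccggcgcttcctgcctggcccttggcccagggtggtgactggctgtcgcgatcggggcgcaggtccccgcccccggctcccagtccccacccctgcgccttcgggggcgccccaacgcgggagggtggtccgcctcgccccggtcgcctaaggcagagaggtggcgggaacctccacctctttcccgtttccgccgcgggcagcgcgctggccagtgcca

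Celf3, chr2:184804841-184805090, plus strand: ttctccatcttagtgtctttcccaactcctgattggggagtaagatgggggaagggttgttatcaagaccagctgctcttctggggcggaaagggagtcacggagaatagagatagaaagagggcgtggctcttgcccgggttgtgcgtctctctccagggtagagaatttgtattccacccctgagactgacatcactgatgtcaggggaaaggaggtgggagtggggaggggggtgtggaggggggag

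The 10 largest rises under the same filter were in Serpina3n, Agt, Cxcl13, Pvalb, Rasd1, Alox15, Pla2g2a, Chi3l1, C6 and Gdpd2. Serpina3n, an acute-phase serine protease inhibitor, was 13.6, 0 and 11.2 with Wwtr1 siRNA against 408, 247 and 1018 in the double knockdown, a log2 difference of 6.38 (SE 0.91, limma adjusted p = 0.000865). With 1 Wwtr1 siRNA library at 0, the fitted size depends on the pseudocount, and it was 5.14 without that library (Wwtr1 siRNA replicate 2), 7.07 without Wwtr1 siRNA replicate 1 and 5.82 without double knockdown replicate 3. Agt, the precursor of the angiotensin peptides, was 11.5, 50.0 and 30.5 against 917, 889 and 1119. Agt differed little among double knockdown libraries, and its log2 difference was 5.16 (SE 0.43, limma adjusted p = 6.5e-05). Alox15, a lipoxygenase of polyunsaturated fatty acids, was 103, 80.6 and 58.9 against 1044, 1371 and 2991 (4.35, SE 0.47, limma adjusted p = 0.000208), or 3.91 without double knockdown replicate 3. Chi3l1, a secreted chitinase-like protein of inflamed tissue, was 66.8, 51.0 and 207 against 1662, 1022 and 1958 (4.05, SE 0.59, limma adjusted p = 0.00102), or 4.65 without Wwtr1 siRNA replicate 3. Rasd1, a Ras-related protein induced by dexamethasone, was 19.8, 11.2 and 20.3 against 425, 493 and 247 (4.41, SE 0.43, limma adjusted p = 0.000106). For each of these genes the lowest double knockdown library was several times the highest Wwtr1 siRNA library. Cxcl13, a B cell chemokine, and Pvalb, a calcium-binding protein, rose by 4.70 and 4.52 on the log2 scale.

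Of the 10 genes with the largest rises, all but Rasd1 were highest in double knockdown replicate 3, the library with the high macrophage marker sum. Pla2g2a, a secreted phospholipase, was 32.3, 42.9 and 223 with Wwtr1 siRNA against 572, 634 and 4641 in the double knockdown. Its log2 difference was 4.11 (limma adjusted p = 0.0086), 3.13 without replicate 3 (limma adjusted p = 0.0202) and 4.96 without Wwtr1 siRNA replicate 3. C6, a complement component of the membrane attack complex, was 13.6, 10.2 and 24.4 against 184, 107 and 863, at 4.01 (limma adjusted p = 0.0409), and its call ended in 8 of 12 such fits (any Wwtr1 siRNA replicate, double knockdown replicate 1 or 3, Yap siRNA replicate 3, or negative siRNA replicate 1 or 2, with adjusted p up to 0.118). Leaving out double knockdown replicate 3 gave C6 a difference of 3.14, and leaving out replicate 2 gave 4.64. Gdpd2, a phosphodiesterase of glycerophospholipids, had 3.75 (limma adjusted p = 0.022) and lost its call in 4 of these fits, namely without double knockdown replicate 1 or 3 or Wwtr1 siRNA replicate 2 or 3 (adjusted p up to 0.0777). The part of the macrophage sum in these rises was not tested.

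**Figure D3:**
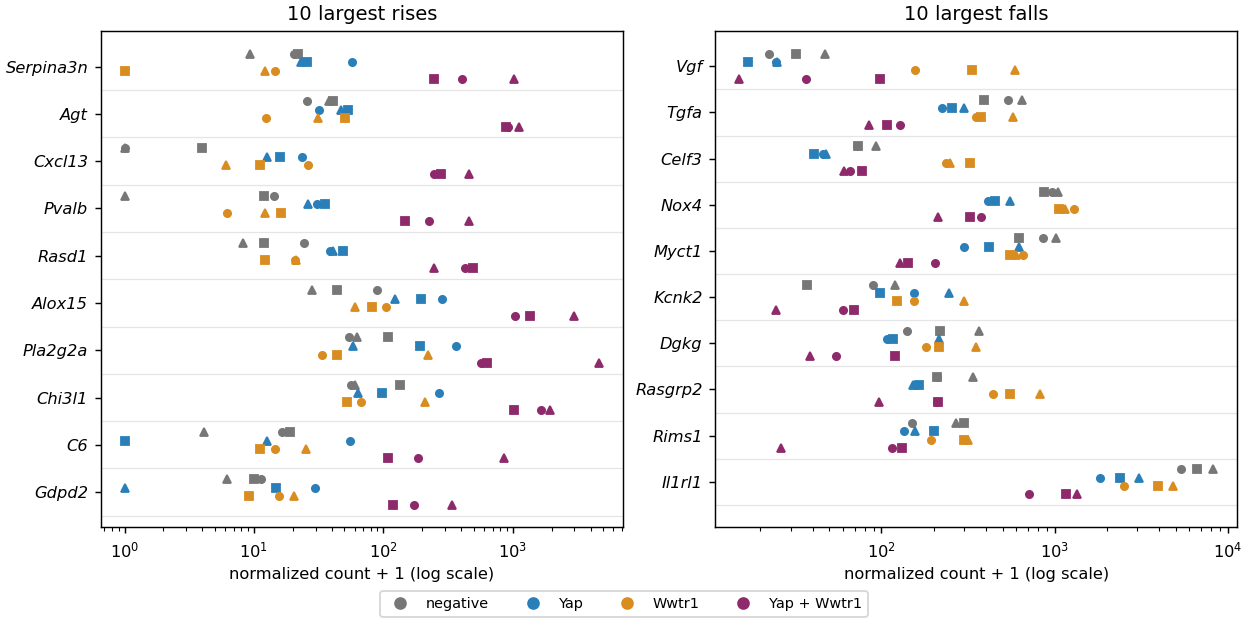
Normalized count + 1 on a log axis (x) for the genes with the 10 largest rises (left) and 10 largest falls (right) from Wwtr1 siRNA to double knockdown, 1 symbol per library, circle, square and triangle for replicates 1 to 3. The ranking is among called genes without overlap and with a mean of at least 100 over the 6 libraries. Purple double knockdown symbols do not overlap orange Wwtr1 siRNA symbols, as the rule required, and in the left panel they lie above those of all 4 groups' other libraries.

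Complement genes were often higher, 11 of 23 tested (47.8% against 9.75% of all genes), with a median log2 difference of 0.77. C3, the central complement component, was 45.9, 78.6 and 82.3 with Wwtr1 siRNA against 395, 377 and 1264 in the doubly treated cells (3.08, SE 0.58, limma adjusted p = 0.00399), or 2.51 without double knockdown replicate 3. C4b, its partner in the classical pathway, was 504, 252 and 102 against 1298, 1097 and 5607 (3.08, SE 0.72, limma adjusted p = 0.0112). C3 was about the same in replicates 1 and 2 and highest in replicate 3. C4b lost its call without Wwtr1 siRNA replicate 3 (limma adjusted p = 0.0527), and was called at 2.34 without double knockdown replicate 3 (limma adjusted p = 0.0287). Without double knockdown replicate 3 the list had 7 higher and 4 lower members (median 0.64), and without Wwtr1 siRNA replicate 3 it had 5 higher (median 0.68). The list holds the C1q genes, which macrophages make, and the part of the macrophage sum in these counts was not tested.

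Among chemokines and inflammatory mediators 11 of 29 tested were higher (37.9%, against 9.75% of all genes tested) and 1 was lower (3.45%, against 10.1%). The median was 1.16. Without double knockdown replicate 3 there were 6 higher and 1 lower (median 1.02). Cxcl11, a ligand of CXCR3 that interferon induces, was 41.7, 59.2 and 19.3 with Wwtr1 siRNA against 389, 416 and 398 in the doubly treated cells (3.43, SE 0.72, limma adjusted p = 0.00655). Cxcl6, a neutrophil chemokine, was 14.6, 0 and 13.2 against 60.7, 71.9 and 216 (4.03, SE 1.09, limma adjusted p = 0.0232, a size that also depends on the pseudocount), and lost its call without Wwtr1 siRNA replicate 2 or double knockdown replicate 3 (adjusted p up to 0.0717), with differences for Cxcl6 from 2.74 without Wwtr1 siRNA replicate 2 to 4.72 without Wwtr1 siRNA replicate 1. The member that fell was Lif, a cytokine of the interleukin-6 family, from 453, 503 and 691 to 223, 241 and 163 (-1.39, SE 0.24, limma adjusted p = 0.00256). With negative siRNA Lif was 239 to 344, so the Wwtr1 siRNA libraries were the high ones. Csf2rb, the shared beta chain of the GM-CSF, interleukin-3 and interleukin-5 receptors, rose from 142, 192 and 256 to 1655, 1088 and 2362 (3.08, SE 0.27, limma adjusted p = 7e-05). Csf2rb is known mainly from leukocytes, and the part of such cells in its rise was not tested. Without double knockdown replicate 3 its log2 difference was 2.81.

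Summed interferon-induced genes were higher in the double knockdown, while the number of single genes past the test depended on the fit and on single libraries. Summed over 52 interferon-induced genes, the level was 41219 to 60827 normalized counts with negative siRNA, 107325 to 310393 with Wwtr1 siRNA and 325327 to 404096 in the double knockdown. The latter groups did not overlap. All 52 genes had a log2 difference above 0, with a median of 0.94, but 6 passed (11.5%, against 9.75% of all genes tested), and 25 had an unadjusted limma p under 0.05. With the replicate number as a block 25 passed. When 1 library was left out, 18 passed without Wwtr1 siRNA replicate 1, and 2 passed without Wwtr1 siRNA replicate 2 or 3 or double knockdown replicate 1 or 2 (median 0.47 without Wwtr1 siRNA replicate 3). Slfn2, a Schlafen protein of immune cells, was 2303, 1529 and 873 against 5067, 5009 and 6302 (1.90, SE 0.41, limma adjusted p = 0.0079). Gbp5, a guanylate-binding protein that assembles on pathogens, was 2857, 2042 and 659 against 6062, 7172 and 5038 (1.94, limma adjusted p = 0.0328), and lost its call in 4 of 12 fits that left out 1 library, namely Wwtr1 siRNA replicate 2 or 3 or double knockdown replicate 1 or 2 (adjusted p up to 0.128), with a difference of 1.32 without Wwtr1 siRNA replicate 3. For both genes Wwtr1 siRNA replicate 3 was the lowest library.

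Of 23 antigen presentation and immunoproteasome genes, 11 were higher (47.8%, median 0.90), or 15 with the replicate number as a block. RT1-T24-4, a class I histocompatibility gene whose reads may be shared with near-identical RT1 genes, was 2965, 2525 and 973 against 7197, 7988 and 5209 (1.79, SE 0.42, limma adjusted p = 0.0118). Psmb9, a catalytic subunit of the immunoproteasome, was 769, 543 and 256 against 1209, 1176 and 1470 (1.43, limma adjusted p = 0.0171), without its call when Wwtr1 siRNA replicate 3 was left out (limma adjusted p = 0.0566). The list had 6 and 3 higher members without Wwtr1 siRNA replicates 2 and 3 (median 0.59 without the latter), 5 and 4 without double knockdown replicates 1 and 2, 9 without double knockdown replicate 3 and 16 without Wwtr1 siRNA replicate 1.

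Single matrix genes moved in both directions. Of 43 fibrillar matrix and matrix assembly genes, 13 were lower (30.2%, against 10.1% of all genes tested) and 6 higher (14%, against 9.75%). Their median was -0.19, and without Wwtr1 siRNA replicate 3 there were 6 lower and 4 higher. Col1a1 was 1684600, 1836000 and 1828700 with Wwtr1 siRNA against 1410200, 1541600 and 1928500 in the double knockdown, groups that overlapped (-0.14, 95% interval -0.52 to 0.23, limma adjusted p = 0.602). Col11a1, a fibril-nucleating collagen chain, fell from 3146, 3925 and 4544 to 992, 959 and 1816 (-1.67, SE 0.24, limma adjusted p = 0.000861). Col8a1, a short-chain collagen of vessel walls, was 6133 to 7139 with negative siRNA. It was 13444, 11504 and 16019 with Wwtr1 siRNA against 9918, 6887 and 3670 in the double knockdown (-1.10, limma adjusted p = 0.016). The call was lost without Wwtr1 siRNA replicate 3 (limma adjusted p = 0.0682). Periostin (Postn), a matricellular protein of activated fibroblasts, went the other way, from 95853, 87071 and 74604 to 155990, 139250 and 178160 (0.88, SE 0.17, limma adjusted p = 0.00423).

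Fibulin-1 (Fbln1), a glycoprotein of elastic fibres and basement membranes, had the largest rise of the matrix list, from 2728, 2331 and 1744 to 9939, 9309 and 33023. Its log2 difference was 2.70 (SE 0.49, limma adjusted p = 0.00316), and 2.11 without double knockdown replicate 3 (limma adjusted p = 0.00453). Decorin (Dcn), a proteoglycan that binds collagen and TGF-beta, was 11025, 8386 and 6179 against 19496, 16321 and 51879 (1.62, limma adjusted p = 0.0129). Its call ended without Wwtr1 siRNA replicate 3 (limma adjusted p = 0.0593), and its difference was 1.10 without double knockdown replicate 3. Both genes were therefore above the Wwtr1 siRNA range in all double knockdown libraries and highest in replicate 3. Of 9 basement membrane genes, 2 were higher and 2 lower (22.2% each, against 9.75% and 10.1% of all genes tested). Col18a1, the source of endostatin, rose from 10499, 11299 and 9759 to 17646, 19256 and 16448 (0.76, SE 0.13, limma adjusted p = 0.00202), and the linker Nid2 fell from 9640, 11385 and 11738 to 7489, 7868 and 5340 (-0.68, SE 0.15, limma adjusted p = 0.00983). Agrn (0.50) and Lamc1 (-0.36), an agrin and a laminin chain, lost their calls in 8 and 5 of 12 fits that left out 1 library (adjusted p up to 0.126 and 0.117). For both these included Wwtr1 siRNA replicates 2 and 3, double knockdown replicate 2 and negative siRNA replicate 2. The others were double knockdown replicate 1, Yap siRNA replicate 2 and negative siRNA replicates 1 and 3 for Agrn and double knockdown replicate 3 for Lamc1. Lamc1 was 73598 to 81456 with Wwtr1 siRNA and 54014 to 66090 in the double knockdown, beside 55672 to 59453 with negative siRNA.

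Among actin and adhesion genes more were called lower than higher. Of 30 actin and focal adhesion genes, 17 were lower (56.7%) and 1 was higher, with a median of -0.48. Without double knockdown replicate 3 there were 13 lower and 3 higher. Lims2, which encodes PINCH2, an adaptor of integrin-linked kinase, was 2015, 2231 and 2599 with Wwtr1 siRNA against 806, 866 and 651 in the doubly treated cells (-1.56, SE 0.14, limma adjusted p = 7.58e-05). Itga11, a collagen-binding integrin of fibroblasts, was 6310, 6843 and 7850 against 2041, 1890 and 3153 (-1.60, SE 0.20, limma adjusted p = 0.000377). Neither gene had overlapping groups. Itgb8, an integrin chain that activates latent TGF-beta, was the member called higher in the main fit (0.86, limma adjusted p = 0.0167), without its call when Wwtr1 siRNA replicate 2 or 3 or double knockdown replicate 1 was left out (adjusted p up to 0.0698).

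Of 20 smooth muscle contractile genes, 9 were lower and 3 higher (median -0.63), with 5 lower without double knockdown replicate 3, 5 without Wwtr1 siRNA replicate 2 and 3 without Wwtr1 siRNA replicate 3. The count of higher members was 1 without Wwtr1 siRNA replicate 1 or 3 or double knockdown replicate 2. Acta2, smooth muscle alpha-actin and the usual myofibroblast marker, was 206240, 239190 and 266100 with Wwtr1 siRNA against 132730, 165490 and 82853 in the doubly treated cells (-0.95, SE 0.23, limma adjusted p = 0.0145). Tagln (SM22, an actin-binding protein) was 114930, 131670 and 155770 against 79653, 91276 and 47034 (-0.93, SE 0.22, limma adjusted p = 0.0131). Both genes were lower in every double knockdown library, lowest in replicate 3, and lost their calls without Wwtr1 siRNA replicate 3 (limma adjusted p = 0.0608 and 0.0593). Notch3, a receptor of mural cells, fell more evenly, from 22406, 24433 and 31288 to 11222, 9971 and 9602 (-1.33, SE 0.15, limma adjusted p = 0.000251). Mcam, an adhesion molecule of the same cells, was at -1.15 (limma adjusted p = 0.0311), and Des (desmin) at 0.93 (limma adjusted p = 0.0434). Mcam lost its call in 4 of 12 fits that left out 1 library and Des in 6 (adjusted p up to 0.122 and 0.164). For both these included Wwtr1 siRNA replicates 2 and 3 and double knockdown replicate 3, with double knockdown replicate 1 for Mcam and Wwtr1 siRNA replicate 1, double knockdown replicate 2 and negative siRNA replicate 1 for Des. Rgs5, a pericyte regulator of G protein signalling, rose from 77.2, 61.2 and 72.1 to 154, 162 and 250 (1.39, SE 0.22, limma adjusted p = 0.00157).

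**Figure D4:**
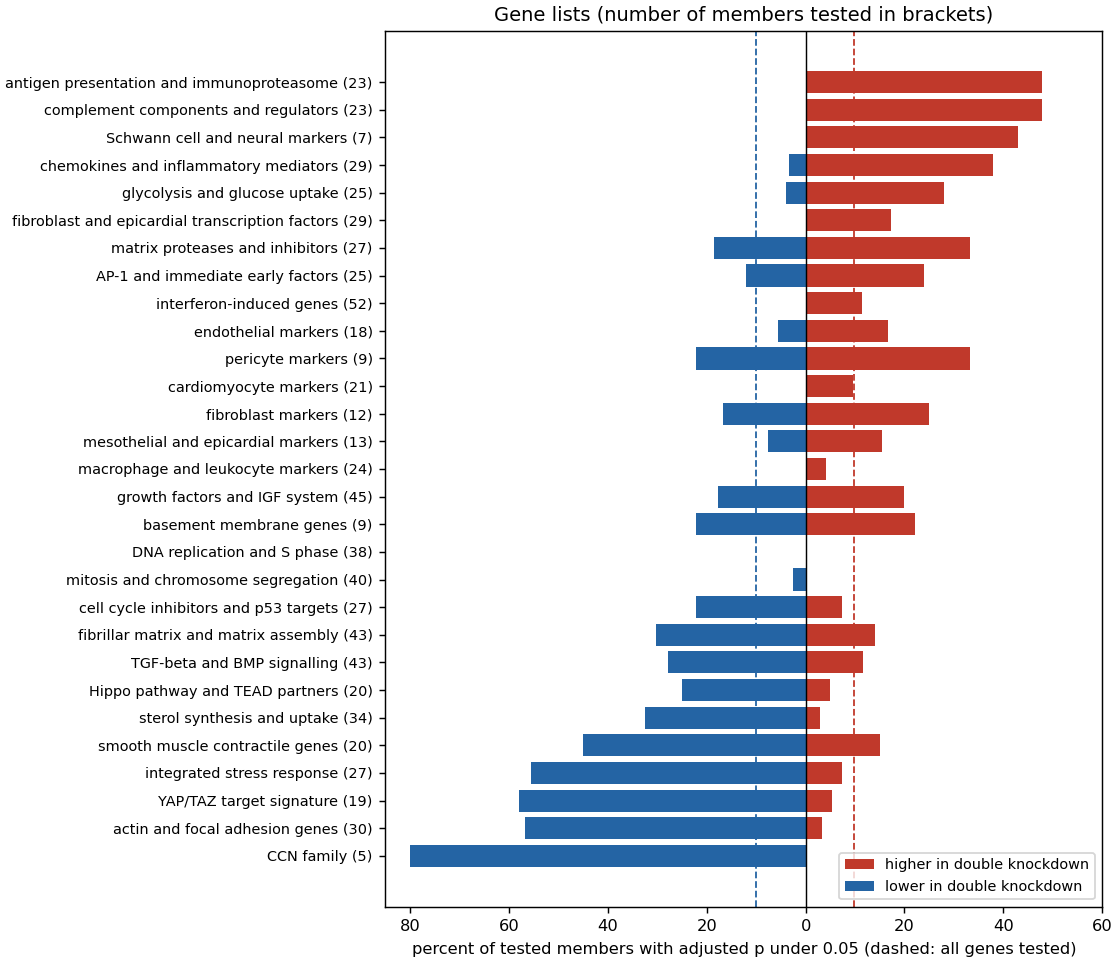
Percent of each list's tested members that were higher (red, right) or lower (blue, left) in the double knockdown at an adjusted p under 0.05 (x axis), with lists and numbers of members on the y axis and dashed lines at 9.75% higher and 10.1% lower for all genes tested. Antigen presentation and complement lists reach furthest to the right (47.8% each), followed by the 7 Schwann cell and neural markers (42.9%) and chemokines (37.9%), and Ccn, actin and adhesion, YAP/TAZ target and stress response lists furthest to the left.

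Matrix proteases and inhibitors had 9 of 27 members higher and 5 lower (median 0.21, and -0.02 without double knockdown replicate 3), or 4 and 5 higher without Wwtr1 siRNA replicates 2 and 3. Htra3, a secreted serine protease, rose from 1707, 1625 and 1222 to 6429, 6405 and 15268 (2.51, SE 0.36, limma adjusted p = 0.000931), and its rise was 2.09 with double knockdown replicate 3 left out. Adamts4, which cuts aggrecan and versican, rose from 322, 315 and 263 to 932, 885 and 1138 (1.71, SE 0.16, limma adjusted p = 0.0001). Prss23, a serine protease, fell from 8297, 9455 and 9828 to 4222, 5086 and 3513 (-1.12, SE 0.12, limma adjusted p = 0.000148).

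In TGF-beta and BMP signalling 12 of 43 genes were lower (27.9%, against 10.1% of all genes tested) and 5 higher (11.6%, against 9.75%). Their median was -0.12, with 6 lower without Wwtr1 siRNA replicate 3 and 8 to 12 with any other compared library left out. Gdf6, a BMP family ligand, fell from 2383, 2295 and 3178 to 865, 704 and 665 (-1.81, SE 0.21, limma adjusted p = 0.000261). Fstl3, an extracellular trap of activins, fell from 864, 969 and 1105 to 471, 615 and 295 (-1.14, SE 0.22, limma adjusted p = 0.00404). Tgfbi, a matrix protein named for its induction by TGF-beta, rose from 378, 417 and 389 to 1596, 2589 and 2008 (2.36, SE 0.24, limma adjusted p = 0.000148). Gdf10, a low-level BMP-like ligand, was at 2.18 and lost its call in 9 of 12 fits that left out 1 library, namely any of the 6 libraries compared, Yap siRNA replicate 1 or 2 or negative siRNA replicate 3 (adjusted p up to 0.15).

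Of 45 growth factor and IGF genes, 9 were higher (20%, against 9.75% of all genes tested) and 8 lower (17.8%, against 10.1%), with a median of -0.03. The angiotensin pair rose together with the test passed for each: Agt as given above, and Ace, the angiotensin-converting enzyme, from 251, 247 and 128 to 1391, 1313 and 1630 (2.84, SE 0.31, limma adjusted p = 0.000188). Edn1 (endothelin-1), a vasoconstrictor peptide, fell from 1095, 1329 and 2038 to 385, 564 and 511 (-1.58, SE 0.24, limma adjusted p = 0.00136). Vegfc, a lymphatic growth factor, was 2360, 2153 and 2410 against 1077, 1071 and 1092 (-1.09, SE 0.09, limma adjusted p = 6.91e-05), and the double knockdown libraries were nearly equal.

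Proliferation genes did not separate the groups by the test. Of 38 DNA replication and S phase genes, 0 passed in limma or in edgeR and 1 in DESeq2, and 1 had an unadjusted limma p under 0.05. Mcm2, a subunit of the replicative helicase and the most abundant of them, was 2905, 2873 and 3229 against 2502, 2783 and 3438 (-0.06, 95% interval -0.28 to 0.17, limma adjusted p = 0.741). Of 40 mitosis genes Kif23, a kinesin of the midbody, was the only call (-0.49, limma adjusted p = 0.0155), and this ended without Wwtr1 siRNA replicate 3 or double knockdown replicate 1 (adjusted p up to 0.0563). Without double knockdown replicate 3, the library with the highest S phase sum (43506 against 28247 and 30415), 5 genes of each list were lower. Cell cycle inhibitors and p53 targets had 6 of 27 lower and 2 higher, or 2 lower and 1 higher without Wwtr1 siRNA replicate 3, 4 lower and 0 higher without Wwtr1 siRNA replicate 2, 4 lower and 2 higher without double knockdown replicate 3, and 5 lower and 1 higher without double knockdown replicate 1. Pmaip1 (Noxa, a pro-apoptotic protein) was at -1.20, Cdkn2b (an inhibitor of CDK4 and CDK6) at -0.66, Sesn1 (a sestrin) at 0.65 and Rbl2 (a retinoblastoma-like protein) at 0.36. All 4 lost their calls without Wwtr1 siRNA replicate 3 or, for Sesn1 and Rbl2, also replicate 2, with further losses for Rbl2 without double knockdown replicate 1 or 3 and for Cdkn2b without Wwtr1 siRNA replicate 1 or double knockdown replicate 3 (limma adjusted p up to 0.0598, 0.0714, 0.0505 and 0.14 for Pmaip1, Cdkn2b, Sesn1 and Rbl2).

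Stress response genes were mostly lower. In the integrated stress response list 15 of 27 were lower (55.6%) and 2 higher (median -0.39), and 14 or 15 were lower without double knockdown replicate 1 or 3 or Wwtr1 siRNA replicate 3. Vldlr, a lipoprotein receptor, fell from 11797, 11155 and 10237 to 5880, 5337 and 6983 (-0.87, SE 0.10, limma adjusted p = 0.000269), and Mthfd2, a mitochondrial folate enzyme, from 4173, 4610 and 4927 to 2265, 2850 and 2561 (-0.84, SE 0.10, limma adjusted p = 0.000411). The members that rose were Ddit4 (REDD1, an inhibitor of mTORC1), from 2102, 1872 and 1435 to 5003, 4471 and 5452 (1.48, SE 0.15, limma adjusted p = 0.000106), and Cebpb, a transcription factor of acute-phase genes, from 4869, 5575 and 5560 to 9557, 10434 and 10540 (0.93, SE 0.14, limma adjusted p = 0.00102).

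Sterol synthesis and uptake genes had 11 of 34 lower and 1 higher (median -0.26), with 18 lower without double knockdown replicate 3, 5 or 6 without double knockdown replicate 2 or 1, and 5 or 7 without Wwtr1 siRNA replicate 2 or 3. Scd, a fatty acid desaturase, was at -0.76 (limma adjusted p = 0.0221) and lost its call without Wwtr1 siRNA replicate 1 or 2 or double knockdown replicate 1 or 2 (adjusted p up to 0.0798). Ebp, a sterol isomerase, rose by 0.48 (limma adjusted p = 0.0105). It was 474 to 506 with Wwtr1 siRNA and 641 to 748 in the double knockdown, beside 709 to 797 with negative siRNA. In glycolysis and glucose uptake 7 of 25 were higher and 1 lower (median 0.20), with 4 higher without Wwtr1 siRNA replicate 3 and 5 with any other compared library left out. Aldoc, an aldolase, rose from 316, 388 and 327 to 634, 576 and 710 (0.90, SE 0.13, limma adjusted p = 0.00104). The glucose transporter Slc2a3 fell from 900, 987 and 985 to 527, 482 and 371 (-1.07, SE 0.14, limma adjusted p = 0.000509). Pdk4, a brake on pyruvate dehydrogenase, was at 1.06 with its call lost without Wwtr1 siRNA replicate 1 or 3 or double knockdown replicate 2 or 3 (limma adjusted p up to 0.116).

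Transcription factor lists are given beside all genes tested, of which 9.75% were higher and 10.1% lower. Among AP-1 and immediate early factors 6 of 25 were higher (24%) and 3 lower (12%, near the share of all genes). Their median was 0.20, and 0.04 without double knockdown replicate 3, with 3 higher without Wwtr1 siRNA replicate 1 or 2. The orphan nuclear receptor Nr4a1 rose from 2046, 1718 and 1766 to 3413, 3756 and 4382 (1.06, SE 0.19, limma adjusted p = 0.00302), and its relative Nr4a2 by 0.65 (limma adjusted p = 0.00989). Dusp1, a phosphatase of MAP kinases, fell from 4431, 4723 and 5856 to 2642, 2844 and 2811 (-0.85, SE 0.12, limma adjusted p = 0.000865). Myc was at -0.55 (limma adjusted p = 0.0167), without its call when Wwtr1 siRNA replicate 3 or double knockdown replicate 1 was left out (adjusted p up to 0.0682). Of 29 fibroblast and epicardial transcription factors 5 were higher (17.2%) and 0 lower (median 0.12). Nr2f1 (COUP-TFI) rose from 484, 348 and 505 to 905, 894 and 1489 (1.27, SE 0.20, limma adjusted p = 0.00168) and Osr2 from 272, 247 and 272 to 505, 526 and 534 (0.98, SE 0.19, limma adjusted p = 0.00454).

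Markers of cell types moved by amounts that differed within each list. Of 12 fibroblast markers 3 were higher and 2 lower (25% and 16.7%, against 9.75% and 10.1% of all genes tested, median -0.06). Pdgfra, a growth factor receptor that marks cardiac fibroblasts, rose from 8734, 7265 and 6016 to 15774, 11844 and 18203 (1.05, SE 0.22, limma adjusted p = 0.00653). Vim (vimentin) fell from 136860, 161490 and 172210 to 102820, 124680 and 106340 (-0.49, SE 0.11, limma adjusted p = 0.00908), and Thy1 was at -1.10 (limma adjusted p = 0.0143), with no call without Wwtr1 siRNA replicate 3 (limma adjusted p = 0.0593). Of 9 pericyte markers 3 were higher and 2 lower. The lower ones were Notch3 (-1.33) and Mcam (-1.15), given above. Summed pericyte markers were 140788 to 149268 with Wwtr1 siRNA against 94092 to 117113 in the double knockdown. Both subunits of the vascular KATP channel rose: Abcc9 from 663, 505 and 389 to 2066, 1325 and 2546 (1.91, SE 0.26, limma adjusted p = 0.000635) and Kcnj8 from 89.7, 59.2 and 50.8 to 267, 169 and 505 (2.11, SE 0.36, limma adjusted p = 0.00241). Of 7 Schwann cell and neural markers S100b (2.05, limma adjusted p = 0.00391), Cnp (0.51, limma adjusted p = 0.00819) and Ncam1 (0.61, limma adjusted p = 0.0318) were higher, Ncam1 without its call when Wwtr1 siRNA replicate 2 or 3 or double knockdown replicate 1 or 2 was left out (adjusted p up to 0.127).

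In 13 mesothelial and epicardial markers 2 were higher and 1 lower (15.4% and 7.69%, against 9.75% and 10.1% of all genes tested, median -0.61). Without double knockdown replicate 3 there were 2 higher and 3 lower (median -0.85), and with any other compared library left out 1 or 2 were higher and 0 lower (median 0.01 without double knockdown replicate 1). Prg4 (lubricin) rose from 87.6, 74.5 and 86.4 to 861, 724 and 1981 (3.68, SE 0.43, limma adjusted p = 0.000271), and its rise was 3.24 with double knockdown replicate 3 left out. Upk1b was at 1.35 and Msln (mesothelin) at -1.33, and their calls ended without Wwtr1 siRNA replicate 2 or 3 or double knockdown replicate 1, and for Msln also without Wwtr1 siRNA replicate 1, double knockdown replicate 2, Yap siRNA replicate 2 or negative siRNA replicate 2 (limma adjusted p up to 0.0583 and 0.145). Of 18 endothelial markers 3 were higher and 1 lower (16.7% and 5.56%, against 9.75% and 10.1% of all genes tested). Esam, a junction protein, rose from 221, 206 and 189 to 432, 406 and 357 (0.95, SE 0.19, limma adjusted p = 0.00538), whereas the VEGF receptors Kdr (1.20) and Flt1 (-0.83) lost their calls without Wwtr1 siRNA replicate 2 or 3, and Kdr also without Wwtr1 siRNA replicate 1, double knockdown replicate 1 or 2 or negative siRNA replicate 1 (limma adjusted p up to 0.108 and 0.0729). Of 21 cardiomyocyte markers Ckm (1.55) and Myh6 (1.10) were higher, which is 9.52% against 9.75% of all genes tested. With the block 5 were higher and 1 lower. The calls of Ckm and Myh6 were lost without Wwtr1 siRNA replicate 3 or double knockdown replicate 2, and for Myh6 also without Wwtr1 siRNA replicate 1, double knockdown replicate 1 or 3, Yap siRNA replicate 1 or negative siRNA replicate 1 (limma adjusted p up to 0.0618 and 0.175). The summed cardiomyocyte markers were 101566, 119832 and 70498 against 114024, 130224 and 102035, which overlapped. Fcgr2b, the macrophage marker called, was 45.9, 38.8 and 104 against 132, 153 and 853 (2.16, limma adjusted p = 0.0245, and 1.30 without double knockdown replicate 3), without its call when Wwtr1 siRNA replicate 1 or 2 was left out (adjusted p up to 0.0908). The part of other cell types in these results was not tested.

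The same Yap siRNA against negative siRNA, with Wwtr1 at its control level, gives the effect of Yap loss in the other background. The 6 libraries of that comparison are separate from the 6 above. Yap1 was 532, 576 and 625 after Yap siRNA alone, under its 713, 739 and 1474 in the double knockdown. These were 16.3% to 19.1% and 21.8% to 45.1% of the negative siRNA mean. The log2 Yap1 effects were -2.49 and -1.78 (difference 0.71, SE 0.31, limma adjusted p = 0.325). The part of unequal Yap1 levels in differences between the comparisons was not tested. The comparison of Yap siRNA with negative siRNA called 570 genes (4.8%, with 3.02% higher and 1.78% lower), or 874 with the replicate number as a block. With 1 library left out, the count was 111 without Yap siRNA replicate 1 and 160 without Yap siRNA replicate 2. It was 341, 260 and 136 without negative siRNA replicates 1, 2 and 3, and 332 without Wwtr1 siRNA replicate 2, which entered that fit through the shared estimate of spread. The other 6 omissions gave 412 to 764 genes. Of the 570, 309 were also called between double knockdown and Wwtr1 siRNA, which is 54.2% of the Yap siRNA list and 13.1% of the longer list. In 294 the direction was the same (148 higher, 146 lower) and in 15 it was opposite. With the block in both comparisons 554 were shared, 63.4% of 874 and 20% of 2770. Across the 11871 genes, which are not independent replicates, the log2 differences had a Pearson correlation of 0.41 and a Spearman correlation of 0.47. The Pearson correlation was 0.56 over the 10102 genes with a mean of at least 100, and 0.40 without the interferon-induced genes.

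A direct test of the difference between the Yap effects passed for 122 genes (1.03%), 50 with a more positive (0.421%) and 72 with a more negative effect (0.607%) where Wwtr1 was low, and for 231 with the replicate number as a block. When 1 library was left out the count ran from 31 to 160, and it was lowest when Wwtr1 siRNA replicate 2 (31) or Yap siRNA replicate 3 (32) was missing. It was 50 and 67 without Wwtr1 siRNA replicates 1 and 3, 68 without Yap siRNA replicate 2, 79 without double knockdown replicate 2, and 58, 57 and 79 without negative siRNA replicates 1, 2 and 3. An unadjusted limma p under 0.05 was reached by 1663 genes. Of the 122, 109 were also called between double knockdown and Wwtr1 siRNA, and 99 had a larger absolute difference there than with Yap siRNA alone. For Agt the values with Yap siRNA alone were 30.7, 52.5 and 46.1, beside 24.6, 40.0 and 37.2 with negative siRNA, so the log2 Yap effect was 0.33 with Wwtr1 at control level and 5.16 with Wwtr1 low (difference 4.83, SE 0.61, limma adjusted p = 0.00524). Csf2rb went from 320, 311 and 258 to 231, 227 and 179 with Yap siRNA alone, an effect of -0.48 against 3.08 (difference 3.56, SE 0.38, limma adjusted p = 0.00518). For Prg4 the effects were 0.75 and 3.68 (difference 2.94, limma adjusted p = 0.0455), a call that ended in 10 of 12 fits that left out 1 library.

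Effects that were more negative with Wwtr1 low included Zbtb7c, Adamtsl3, Cgref1, Gdf6 and Amotl2. Zbtb7c, a zinc finger transcription factor, was 714, 536 and 560 in control cells and 746, 831 and 841 after Yap siRNA. After Wwtr1 siRNA it was 807, 751 and 783, against 196, 291 and 311 in the double knockdown. The double knockdown was thus the only low group, with log2 Yap effects of 0.43 and -1.58 (difference -2.00, SE 0.23, limma adjusted p = 0.00518). Adamtsl3, a matrix protein of the ADAMTS-like family, had effects of 0.35 and -1.36 (difference -1.71, limma adjusted p = 0.0311), and its call ended in 7 of 12 such fits. For Gdf6 they were -0.41 and -1.81 (difference -1.40, limma adjusted p = 0.0462), and its call ended in 11 of 12. Cgref1, a secreted regulator of cell growth, rose with Yap siRNA alone, from 359, 376 and 438 to 829, 782 and 847, and was lower in the double knockdown than with Wwtr1 siRNA, at 416, 542 and 378 against 573, 663 and 758 (difference -1.65, SE 0.21, limma adjusted p = 0.00524). The fall of Cgref1 in the double knockdown itself lost its call without Wwtr1 siRNA replicate 2 or 3 or double knockdown replicate 1 (limma adjusted p up to 0.0744). Amotl2 fell by 0.47 on the log2 scale with Yap siRNA alone and by 1.44 where Wwtr1 was low (difference -0.97, SE 0.15, limma adjusted p = 0.0155).

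For many genes the Yap effects did not differ past the test. The differences were -0.14 for Lims2 (95% interval -0.57 to 0.29), 0.00 for Col18a1 (-0.39 to 0.38), -0.32 for Il1rl1 (-1.21 to 0.56) and -0.59 for Ccn2 (-1.17 to -0.02, limma adjusted p = 0.333). The Ccn2 interval did not include 0, although its adjusted p missed the threshold. Counts of called list members differed between the comparisons, as did those over all genes (1.78% against 10.1% lower and 3.02% against 9.75% higher). Interferon-induced genes had 49 of 52 called higher with Yap siRNA alone (median 2.35), beside the 6 above or 49 and 25 with the block. The 49 fell to 20 and 27 without Yap siRNA replicates 1 and 2 and to 28 without negative siRNA replicate 3. Zbp1, a sensor of Z-form nucleic acids, was the only member whose effects differed by the direct test (limma adjusted p = 0.0192), and with the block 11 members did. Zbp1 had no reads in any negative siRNA library and 179, 153 and 37.7 after Yap siRNA. After Wwtr1 siRNA it was 196, 94.9 and 45.7, against 237, 277 and 324 in the double knockdown. Its fitted effect against libraries at 0 depends on the pseudocount. The YAP/TAZ signature had 8 of 19 lower with Yap siRNA alone (median -0.47) beside 11 of 19, actin and focal adhesion genes 4 of 30 (median -0.27) beside 17 of 30, stress response genes 2 of 27 (median -0.09) beside 15 of 27, and complement genes 1 of 23 higher (median 0.19) beside 11 of 23. With the block these lists had 8, 7, 3 and 1 members called with Yap siRNA alone, beside 11, 18, 16 and 12. The signature had 1 to 3 lower members in place of 8 without Wwtr1 siRNA replicate 2, Yap siRNA replicate 1 or 2 or any negative siRNA replicate. With 1 library left out, the counts for Yap siRNA alone ran from 1 to 7 for actin and focal adhesion, 0 to 2 for stress response and 1 to 3 for complement genes. By the direct test of single genes, the Yap effects differed for 1 of 19 signature, 0 of 30 actin and focal adhesion, 1 of 27 stress response and 0 of 23 complement genes, or 1, 2, 2 and 0 with the block. Whether the counts themselves differ between the backgrounds was not tested.

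**Figure D5:**
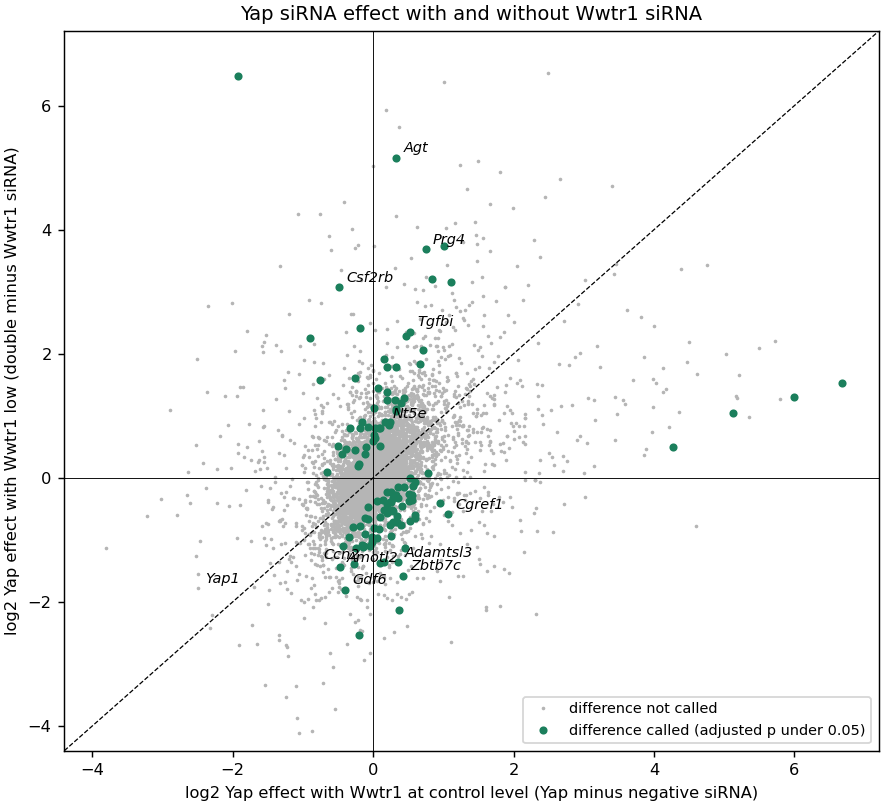
Log2 effect of Yap siRNA where Wwtr1 was low (double knockdown minus Wwtr1 siRNA, y axis) against its effect at control Wwtr1 (Yap siRNA minus negative siRNA, x axis), 1 point per gene, green where the difference itself passed, dashed line for equal effects. Agt, Csf2rb and Prg4 lie high above the line near 0 on the x axis, Zbtb7c lies far under it, and the correlation over all 11871 genes is 0.41.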

How the data were processed

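The authors trimmed reads with Trim Galore 0.6.5, aligned them to rn6 with HISAT2, estimated abundance with StringTie and normalized with DESeq2. In the deposited signal table each library's reads are scaled by a size factor of its own. Reads were recovered from it, and 100% of the 147252 values came out whole (tolerance 0.01). No pair of replicates agreed within sampling noise (lowest chi-square per gene 20.0). With 3 libraries per group, the number of replicates limits precision. Of the symbols, 96.7% matched GRCr8 names. Strand use in counting was not stated, so a gene and an antisense partner cannot be told apart, and members of near-identical families are uncertain. The authors' own comparison tables hold fold changes and p-values and were not used.

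Tests used limma (3.58.1, under R 4.3.3) on log2 values with a pseudocount of 1, with a mean-variance trend and all 12 libraries in 1 fit without covariates. Adjusted p-values are two-sided Benjamini-Hochberg values over 11871 genes with a threshold of 0.05. Fold changes on this scale understate the change of low genes. The steps were tested on simulated data.

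Named genes were Yap1, Wwtr1, the Ccn family, the 10 largest rises and falls among called genes without overlap and with a mean of at least 100 over the 6 libraries, up to 2 called members in each direction from each of 29 lists (or the most abundant member where none was called), and the 3 most positive and negative differences between Yap effects. This gave 107 genes, of which 2 are not reported here, and 9 were added after their values were seen. Members, lists and rules were chosen with earlier results of these data known. Same-numbered negative and Yap siRNA libraries deviated together from their group means (correlations 0.144, 0.187 and 0.276), and values with the number as a block stand beside that comparison, whose main values come from the fit without it. Alternatives were pseudocounts of 0.1 and 10, other filters, other scalings, no trend, edgeR 4.0.16 and DESeq2 1.42.0 on recovered reads, the 6 libraries alone, a replicate block and leaving out each library.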

Additional observations from a re-analysis of the deposited data

Results flagged for a closer look

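The results below are genes named above whose effect of Yap siRNA differed between cells with low Wwtr1 and cells with control Wwtr1. The direct test (limma adjusted p under 0.05) passed for 122 genes. Those that no naming rule picked are not listed, among them Wwc2 of the Hippo list (limma adjusted p = 0.00518). Each value is the log2 effect with low Wwtr1 minus that with control Wwtr1. Positive values were 4.83 for Agt, 3.56 for Csf2rb, 2.94 for Prg4, 1.83 for Tgfbi, 1.05 for Aldoc and 0.51 for Map4k4. Negative values were -0.66 for Vegfc, -0.97 for Amotl2, -0.98 for Prss23, -1.40 for Gdf6, -1.65 for Cgref1, -1.71 for Adamtsl3, -2.00 for Zbtb7c and -5.15 for Zbp1.

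Agt, Csf2rb, Zbtb7c, Cgref1 and Amotl2 kept the call in all 12 fits that left out 1 library, with adjusted p at most 0.0495. Zbp1 lost it without Wwtr1 siRNA replicate 2 (limma adjusted p = 0.0587), and because no negative siRNA library had a Zbp1 read, its value depends on the pseudocount. Of the 12 fits, Prss23 lost the call in 5, Aldoc in 6, Adamtsl3 and Tgfbi in 7, Vegfc in 9, Prg4 in 10 and Gdf6 and Map4k4 in 11. Leaving out Wwtr1 siRNA replicate 3 was among the losses of all 8.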

How the results depend on the processing

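Directions of the called genes that the text names did not reverse under any of the 24 alternatives. Of 110 such genes, 67 kept their call throughout, 39 lost it in at least 1 fit that left out a library and 38 in another alternative (17 with the 6 libraries alone, 4 with edgeR, 0 with DESeq2). Mcm2, which was not called, ranged from -0.18 to 0.045 when 1 library was left out. Genes that differed between double knockdown and Wwtr1 siRNA numbered 1288 to 2340 when 1 library was left out, with 643 to 1141 higher and 645 to 1199 lower. Those changed by Yap siRNA alone numbered 111 to 764, and differences between Yap effects 31 to 160. DESeq2 gave 2887, 1013 and 500 for these 3 counts, and no trend gave 2063, 294 and 60. The cause was not tested.

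Same-numbered Wwtr1 siRNA and double knockdown libraries had correlations of 0.180, 0.0678 and 0.0878, not all over 0.1. The study's methods describe repeats with separate litters, but no label ties a number to a litter, so the main values do not use the pairing and blocked counts are given beside the main counts where they moved most. A replicate block gave 2770, 874 and 231 calls and ended 2 calls of named genes. With it, 25 interferon-induced genes were higher. On the 6 libraries alone there were 1661 calls, or 1409 with the block, 621 of them lower. Upper-quartile scaling gave 1047 higher and 1379 lower. With 3 libraries per group, single libraries moved many counts.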
